A study of Homo sapiens with 16 samples.

Results

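The mRNAs described here are those of 9 genes of MHC class I antigen presentation: the heavy chains HLA-B, HLA-C and HLA-E, their light chain B2M, the peptide transporter TAP1 and TAP2, its partner TAPBP, and the inducible proteasome subunits PSMB8 and PSMB9. They were taken by symbol from a table of 20531 entries, in which all 9 were listed once. RNA came from LNCaP, an androgen-sensitive human prostate cancer line, transfected for 24 h at 40 nM with either a nonsense siRNA (NS) or a mixture of 3 siRNAs against SLIRP, an RNA-binding protein that associates with the androgen receptor. Serum-free medium with ethanol vehicle or 1 nM dihydrotestosterone (DHT), the potent androgen, was then given for a further 24 h. The groups are called SLIRP-Veh and NS-Veh without androgen, and SLIRP-1nM DHT and NS-1nM DHT with it. Each of the 4 had 4 libraries, from 2 biological replicates in each of 2 experiments. The comparisons ask how SLIRP knockdown and androgen change the transcriptome. Every library came from transfected cells, so a lower level with SLIRP siRNA and a higher level with NS siRNA cannot be told apart. The level per cell and the share of cells that express a gene also cannot be told apart in RNA from a whole culture.

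MHC class I molecules show peptides from inside the cell to CD8 T cells. The proteasome cuts proteins into peptides, TAP1 and TAP2 carry these into the endoplasmic reticulum, and TAPBP (tapasin) holds the transporter beside an empty heavy chain until a peptide binds. B2M is needed by every classical heavy chain to fold and reach the surface. HLA-B and HLA-C are classical presenting chains, whereas HLA-E mostly shows leader peptides of other class I chains to NK cells. PSMB8 and PSMB9 replace the constitutive catalytic subunits PSMB5 and PSMB6 in the immunoproteasome. Interferon raises all of these genes in many cell types, and tumours often carry little class I.

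On hg19, 8 of the 9 genes lay on chromosome 6 and B2M on chromosome 15 (45003556 to 45011049). The chromosome 6 genes ran from HLA-E (30457286 to 30461971) through HLA-C (31236526 to 31239907), HLA-B (31321649 to 31334844), TAP2 (32789610 to 32806516), PSMB8 (32808494 to 32812456), PSMB9 (32811913 to 32827628) and TAP1 (32812986 to 32821593) to TAPBP (33267471 to 33282061). PSMB9 overlapped both PSMB8 and TAP1 on the opposite strand in the annotation. Whether the counting used strand is not given in the sources used here, so reads of these overlapping genes cannot be told apart. An unnamed protein-coding locus on the same strand shared 35.3% of the 50-base windows of the TAP2 transcript.

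The heavy chains resemble each other, which matters for reads of 50 bases. Of the 50-base windows of the reference transcript, 2.56% of HLA-B, 6.76% of HLA-C and 6.16% of HLA-E occurred in a transcript of another gene, and 0% of B2M. The longest stretch that HLA-B shared with HLA-C was 66 bases in exon 3 of HLA-B, at chr6:31324078-31324143 of hg19, minus strand. It is shown because a read within it fits either gene.
HLA-B and HLA-C: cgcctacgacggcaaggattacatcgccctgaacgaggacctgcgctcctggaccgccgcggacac
The reference holds 1 allele of each HLA gene, which need not be the alleles of LNCaP, so a level compared between HLA genes is less certain than a change within one.

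The upstream sequences of the 4 genes that were lower with SLIRP siRNA in every comparison made between the siRNAs are shown with TAP2, which was not. They are the 250 bases before the RefSeq transcription start on GRCh38.p14, and the table matched 8 of the 9 genes (not HLA-E). Capitals mark matches on either strand to GAAANNGAA (the core of the interferon-stimulated response element), to the NF-kB consensus, or to CCAAT. Matches to different words did not overlap in these sequences, whereas the GAAANNGAA matches of B2M and TAPBP and the NF-kB matches of HLA-B lay in overlapping pairs.
HLA-B, chr6:31357180-31357429, minus strand: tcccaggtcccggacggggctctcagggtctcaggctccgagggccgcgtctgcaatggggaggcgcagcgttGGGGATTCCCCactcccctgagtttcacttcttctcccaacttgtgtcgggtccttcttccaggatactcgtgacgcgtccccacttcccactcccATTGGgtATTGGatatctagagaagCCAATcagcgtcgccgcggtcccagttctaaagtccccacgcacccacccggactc
HLA-C, chr6:31272093-31272342, minus strand: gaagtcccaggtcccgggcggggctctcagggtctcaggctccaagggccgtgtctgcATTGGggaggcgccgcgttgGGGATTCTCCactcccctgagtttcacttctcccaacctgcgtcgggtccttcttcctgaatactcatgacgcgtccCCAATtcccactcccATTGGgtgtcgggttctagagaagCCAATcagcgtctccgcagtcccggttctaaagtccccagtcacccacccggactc
B2M, chr15:44711267-44711516, plus strand: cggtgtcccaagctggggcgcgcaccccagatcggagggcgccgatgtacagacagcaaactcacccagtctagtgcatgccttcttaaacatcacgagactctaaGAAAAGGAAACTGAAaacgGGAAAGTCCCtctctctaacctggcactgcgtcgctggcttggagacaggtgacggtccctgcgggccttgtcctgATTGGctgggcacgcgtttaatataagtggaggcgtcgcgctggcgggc
TAPBP, chr6:33314079-33314328, minus strand: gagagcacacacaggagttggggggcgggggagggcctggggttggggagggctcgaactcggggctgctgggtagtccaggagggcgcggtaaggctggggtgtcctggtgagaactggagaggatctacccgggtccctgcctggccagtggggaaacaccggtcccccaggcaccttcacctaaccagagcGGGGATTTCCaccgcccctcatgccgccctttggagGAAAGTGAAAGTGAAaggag
TAP2, chr6:32838740-32838989, minus strand: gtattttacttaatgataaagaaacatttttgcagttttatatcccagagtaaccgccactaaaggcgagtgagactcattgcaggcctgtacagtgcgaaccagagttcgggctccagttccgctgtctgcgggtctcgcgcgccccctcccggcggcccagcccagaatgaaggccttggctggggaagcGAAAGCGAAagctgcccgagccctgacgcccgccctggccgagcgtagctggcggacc
In the full window of 250 bases before and 50 after the start, GAAANNGAA occurred in B2M, TAP2, TAPBP and PSMB8, against 8.11% of all 35116 promoters of the table. The NF-kB consensus occurred in HLA-B, HLA-C, B2M and TAPBP, against 11.3% of all promoters. CCAAT occurred in HLA-B, HLA-C, B2M and PSMB9, against 34.6%. TAP1 held none of the 3 words in this window, which was chr6:32852712-32853011. The RefSeq start that set it was not checked against the end of TAP1 in the annotation above. The window may therefore lie inside the gene, and a word further upstream of TAP1 would have been missed. A match is only a description of these letters. Other spellings of the interferon-stimulated response element were not searched, so a gene without GAAANNGAA, such as HLA-B or HLA-C, need not lack the element.

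The deposited estimated counts are given as CPM, which sets each count against the TMM-scaled size of its library. Groups were compared by the quasi-likelihood test of edgeR, and a gene passed at an FDR (Benjamini-Hochberg, over all genes tested) under 0.01. Library totals ranged from 436353 to 1689708, so a floor of 3 counts stood at 1.78 to 6.95 CPM, which covers counting error only. SLIRP, listed under its older symbol C14orf156, was at 45.1 to 63.4 CPM in the NS libraries and 1.41 to 8.04 CPM in the SLIRP siRNA libraries. All 10 luminal prostate markers examined were tested, whereas 9 of 12 leukocyte markers, PTPRC among them, were at 0 in all 16 libraries and the 12 together reached at most 8.005 CPM. Of 8 stromal and endothelial markers 2 were tested and neither passed. Between libraries of one group the counts varied more than sampling alone gives (chi-square over degrees of freedom 1.2 to 2.74).

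Per length, the light chain was the most abundant of the 9 mRNAs and the immunoproteasome subunits were the least. In the 8 NS libraries B2M stood at 356.4 ± 48.89 CPM per kb of transcript (SD, n = 8). HLA-C followed at 113.3 ± 11.61, TAPBP at 82.09 ± 5.022 and HLA-B at 52.7 ± 11.57 CPM per kb. TAP1 was at 15.46 ± 2.178, HLA-E at 10.14 ± 2.188 and TAP2 at 5.163 ± 0.7896 CPM per kb. PSMB9 at 2.499 ± 2.142 and PSMB8 at 1.673 ± 1.228 CPM per kb did not differ beyond their spread, and each was at 0 in 3 of the 16 libraries. The other neighbours in this order were apart by more than the larger of their SDs, but the place of each HLA gene also depends on how well the reads of LNCaP fit the reference allele.

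**Figure D1:**
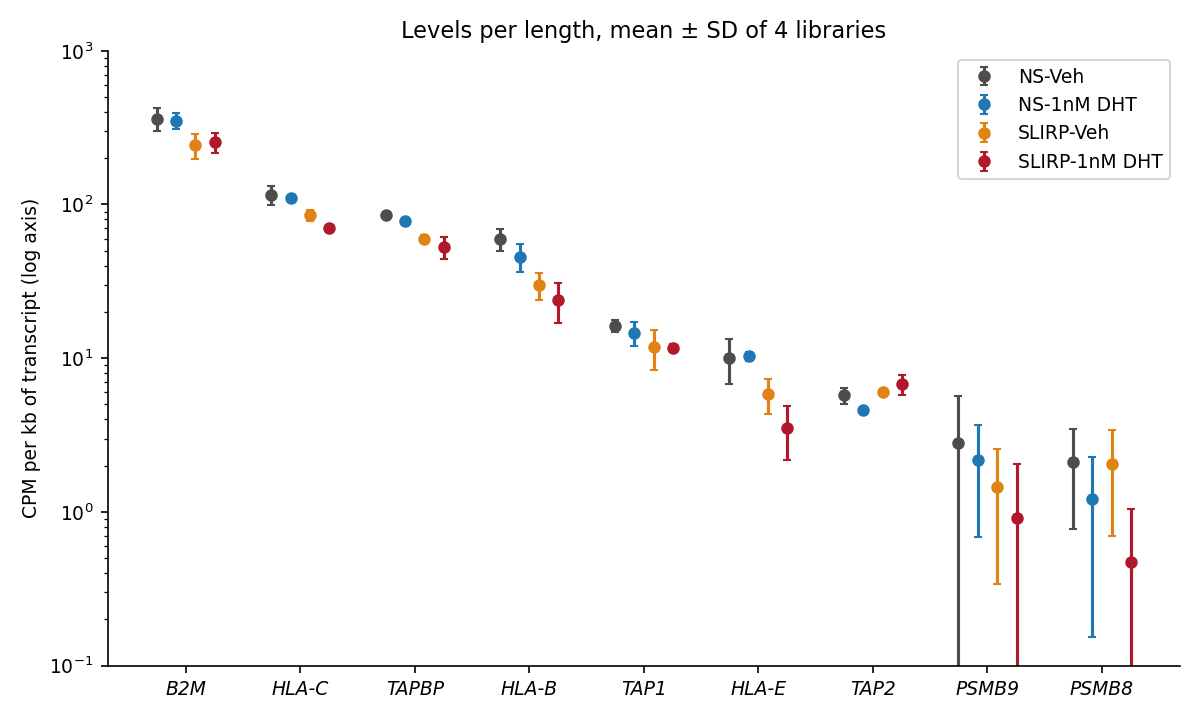
Level of each gene in CPM per kb of its canonical transcript on a log axis, as the mean of 4 libraries with the SD, for each of the 4 groups. The NS groups (grey and blue) run from 356.4 CPM per kb for B2M to 1.673 for PSMB8 in the mean of 8 libraries, and bars that reach the lower edge extend to 0.

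With SLIRP siRNA, vehicle and DHT libraries together, 5 of the 9 genes fell: HLA-B, HLA-C, HLA-E, B2M and TAPBP. None rose. TAP1 and TAP2 did not pass the FDR, and PSMB8 and PSMB9 had too few counts to be tested. Among all 10167 genes tested, 17.4% were lower and 17.8% higher in this comparison, so many genes outside the pathway also differed. The median log2 fold change of the 7 tested was -0.535, against -0.0145 over all genes tested. Separate tests gave 4 of 7 lower in vehicle, where 9.95% of all genes were lower, and 5 of 7 lower in DHT, where 11.6% were. The gene that differed between these counts was HLA-E, with an FDR of 0.0173 in vehicle.

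**Figure D2:**
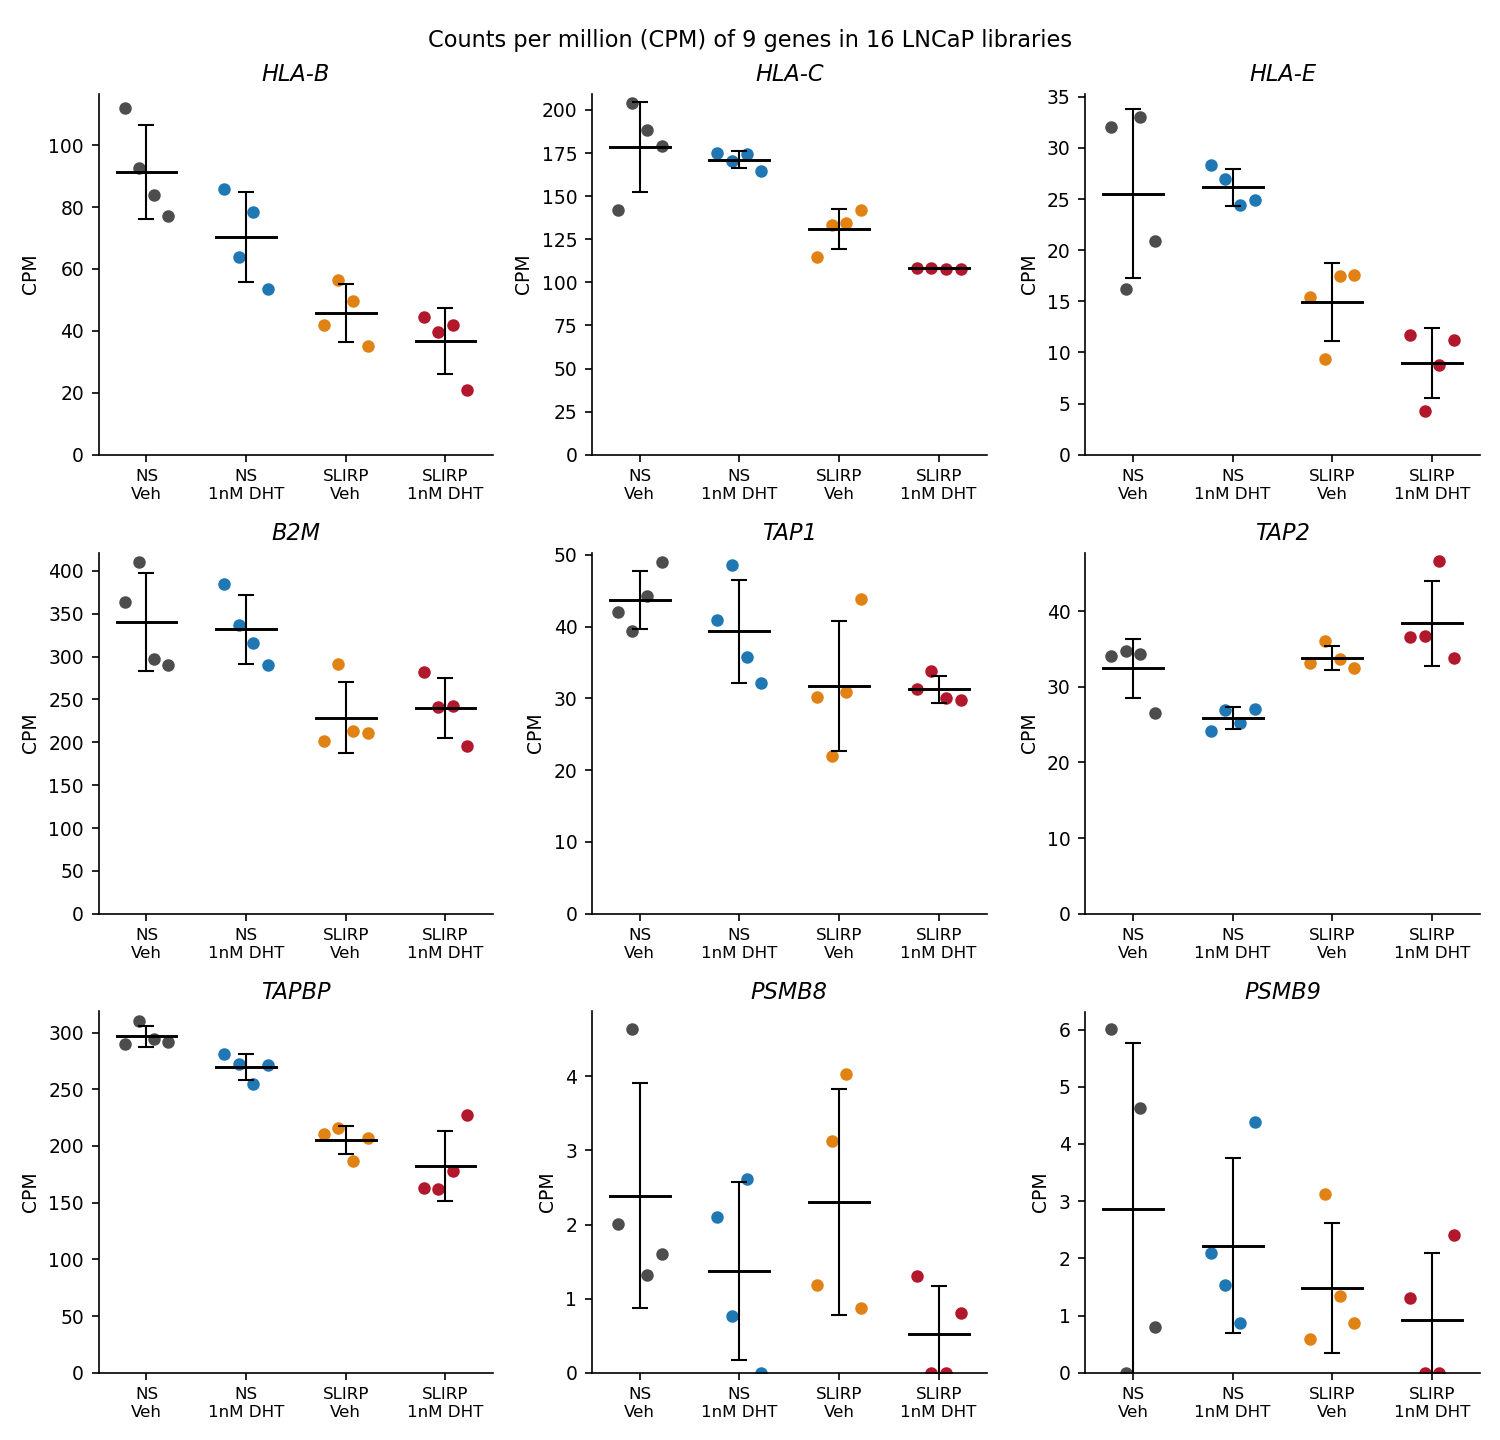
CPM of each of the 9 genes in the 4 libraries of each group (points, with replicates 1 to 4 from left to right), with the mean (line) and SD (bar), each panel on its own axis from 0. The SLIRP siRNA libraries of HLA-C and TAPBP lie below all NS libraries, those of TAP2 do not, and PSMB8 and PSMB9 stay under 7 CPM.

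HLA-B was 1.95 times lower over all libraries, with near-equal falls in vehicle and DHT. It stood at 112, 92.7, 83.9 and 77.1 CPM in NS-Veh and at 42.0, 56.4, 49.8 and 35.1 CPM in SLIRP-Veh. With DHT it stood at 86.0, 64.0, 78.4 and 53.4 CPM in NS libraries and at 44.3, 39.5, 41.8 and 20.9 CPM in SLIRP siRNA libraries. Within each treatment the siRNA groups did not overlap, and over all libraries only SLIRP-Veh replicate 2 lay above the lowest control. How many of all genes separate in this way with 4 libraries a group was not counted. An unadjusted edgeR p under 0.05 was found for 41.1% of all genes tested in vehicle and 43.5% in DHT. The log2 fold change of HLA-B was -0.97 over all libraries (SE 0.15, edgeR FDR 2.89e-06), -0.99 in vehicle (SE 0.18, FDR 4.46e-05) and -0.97 in DHT (SE 0.19, FDR 0.000107).

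HLA-C fell by less, and its SLIRP-1nM DHT libraries lay close together. The levels were 142.1, 204.0, 188.3 and 179.1 CPM in NS-Veh against 114.8, 133.1, 134.5 and 142.0 CPM in SLIRP-Veh. In DHT they were 175.1, 170.4, 174.2 and 164.5 CPM with NS and 108.2, 108.6, 107.8 and 107.8 CPM with SLIRP siRNA. All 8 SLIRP siRNA libraries lay below all 8 NS libraries, as for 7.28% of all genes tested, although the nearest pair, NS-Veh replicate 1 and SLIRP-Veh replicate 4, nearly touched at 142.1 and 142.0 CPM. The log2 fold change was -0.55 (SE 0.082, edgeR FDR 1.49e-06) over all libraries, -0.47 (SE 0.10, FDR 0.00058) in vehicle and -0.66 (SE 0.10, FDR 3.95e-06) in DHT. The vehicle call was lost with limma on the authors' normalized table (FDR 0.0143 with a pseudocount of 1).

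HLA-E had the largest fall of the 7 tested, both over all libraries and in DHT, from few reads. Its counts were 3 to 50 a library. In vehicle it stood at 32.0, 16.2, 33.0 and 20.9 CPM with NS and at 15.4, 9.39, 17.5 and 17.5 CPM with SLIRP siRNA, and NS-Veh replicate 2 lay below 2 of the knockdown libraries. In DHT the groups were apart, with 28.3, 27.0, 24.4 and 24.9 CPM against 11.7, 4.23, 8.74 and 11.3 CPM. The share of all genes so separated was not counted. The log2 fold change of HLA-E was -1.07 over all libraries (SE 0.20, edgeR FDR 4.1e-05), -0.78 in vehicle (SE 0.26) and -1.48 in DHT (SE 0.28, FDR 5.75e-05). Without NS-Veh replicate 2, HLA-E passed in vehicle too (FDR 0.00921), and without NS-Veh replicate 3 the vehicle value was -0.546.

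B2M, the light chain shared by the class I chains, was 1.43 times lower over all libraries. NS-Veh libraries held 364, 410, 297 and 291 CPM and SLIRP-Veh libraries 201, 291, 213 and 210 CPM. NS-1nM DHT libraries held 385, 337, 315 and 290 CPM and SLIRP-1nM DHT libraries 282, 241, 242 and 196 CPM. SLIRP-Veh replicate 2 alone reached the control range. The log2 fold change was -0.52 over all libraries (SE 0.089, edgeR FDR 1.56e-05), -0.56 in vehicle (SE 0.12, FDR 0.000327) and -0.47 in DHT (SE 0.11, FDR 0.00116). The DHT call was lost without NS-1nM DHT replicate 1 (FDR 0.011) or SLIRP-1nM DHT replicate 4 (FDR 0.0166), and with limma (FDR 0.0134).

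Neither subunit of the transporter passed the FDR in any comparison of the siRNAs. In vehicle TAP1 stood at 42.0, 39.4, 44.3 and 49.0 CPM with NS and 30.2, 21.9, 30.9 and 43.8 CPM with SLIRP siRNA. In DHT it stood at 40.9, 48.6, 35.7 and 32.2 CPM with NS and 31.3, 33.8, 30.1 and 29.8 CPM with SLIRP siRNA. Its groups overlapped in both treatments, and the log2 fold change was -0.39 over all libraries (SE 0.13, edgeR FDR 0.0157). TAP1 passed without SLIRP-Veh replicate 4 (FDR 0.00405) or NS-1nM DHT replicate 4 (FDR 0.0064). TAP2 stood at 34.0, 34.8, 34.4 and 26.5 CPM in NS-Veh and 33.1, 36.0, 33.6 and 32.4 CPM in SLIRP-Veh, which overlapped. In DHT it stood at 24.1, 27.0, 25.3 and 27.1 CPM with NS and at 36.5, 36.7, 46.6 and 33.8 CPM with SLIRP siRNA. Every knockdown library lay above every control library, a separation whose share among all genes was not counted. The log2 fold change of TAP2 was 0.33 over all libraries (SE 0.13, edgeR FDR 0.0372), 0.077 in vehicle (SE 0.18, FDR 0.785) and 0.56 in DHT (SE 0.18, FDR 0.0114). The DHT value passed under RLE scaling (FDR 0.00895), a minimum of 10 counts in every library (FDR 0.00682) and limma (FDR 0.00743), and without any of 5 single libraries (lowest FDR 0.00722).

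The ratio of TAP1 to TAP2 within a library was chosen after these values were seen. Library scaling enters such ratios only through a prior count of 2, scaled to library size and added to each gene. That prior weighs most on genes with few counts, such as HLA-E. On the log2 scale the ratio of TAP1 to TAP2 was 0.412 ± 0.295 with NS and -0.124 ± 0.442 with SLIRP siRNA in vehicle (SD, n = 4). In DHT it was 0.556 ± 0.257 with NS and -0.273 ± 0.222 with SLIRP siRNA. The DHT libraries of the 2 siRNAs did not overlap, at 0.234 to 0.804 with NS and -0.599 to -0.109 with SLIRP siRNA, and the vehicle libraries did. The log2 ratio of HLA-B to B2M in vehicle was -1.87 ± 0.186 with NS and -2.28 ± 0.198 with SLIRP siRNA, against -2.22 ± 0.196 and -2.69 ± 0.289 in DHT. HLA-B to HLA-C in vehicle was at -0.95 ± 0.41 with NS and -1.49 ± 0.323 with SLIRP siRNA, and HLA-E to HLA-C in DHT at -2.62 ± 0.0858 and -3.4 ± 0.533. For HLA-C to B2M the 4 group means lay between -1.13 and -0.783. These ratios are descriptions and were not tested.

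TAPBP, which bridges the transporter and the heavy chain, had the smallest SE of the 7 tested. It stood at 290, 311, 295 and 291 CPM in NS-Veh and 211, 216, 187 and 207 CPM in SLIRP-Veh. In DHT it stood at 281, 272, 254 and 271 CPM with NS and 163, 162, 178 and 228 CPM with SLIRP siRNA. All 8 SLIRP siRNA libraries lay below all 8 controls, as for 7.28% of all genes tested, the nearest pair at 228 and 254 CPM. The log2 fold change was -0.53 (SE 0.074, edgeR FDR 5.69e-07) over all libraries, -0.52 (SE 0.095, FDR 3.73e-05) in vehicle and -0.54 (SE 0.094, FDR 1.92e-05) in DHT.

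**Figure D3:**
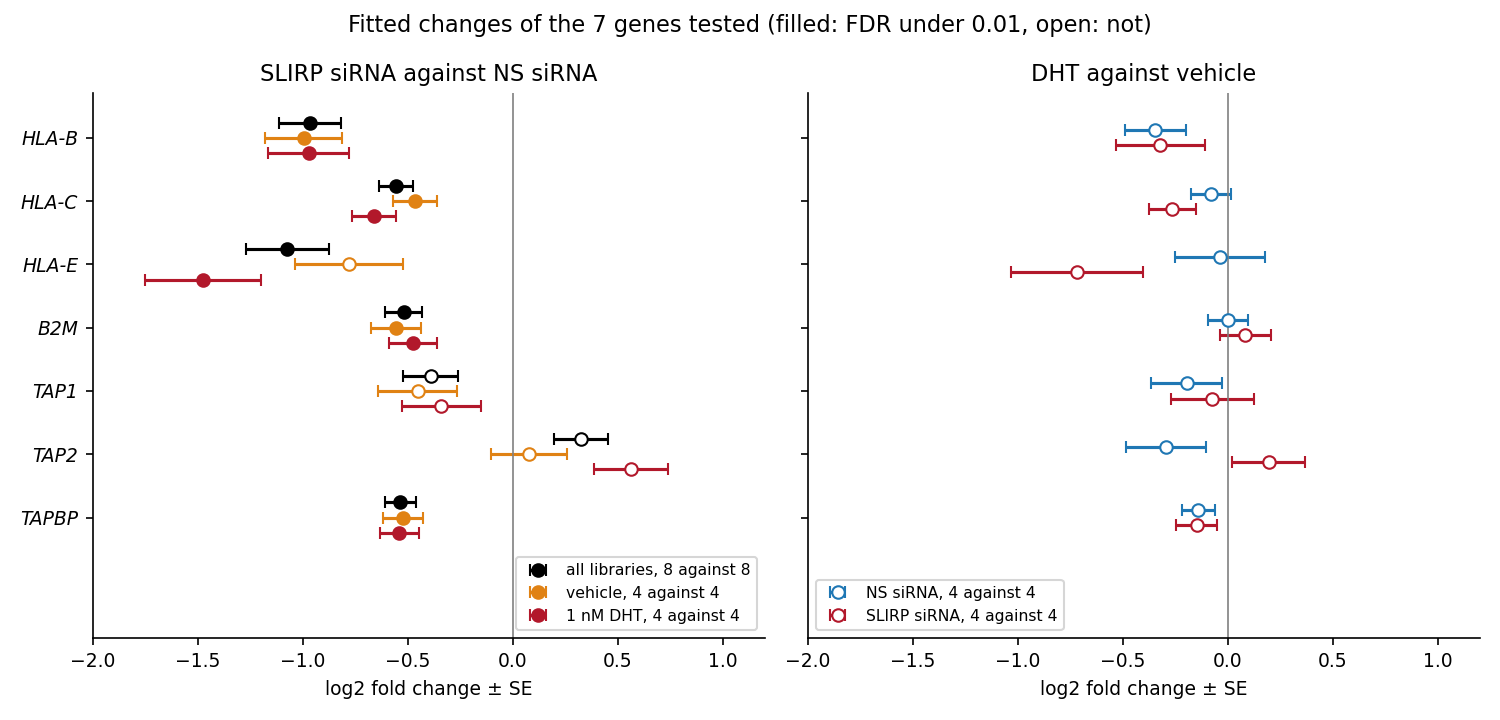
Fitted log2 fold change with its SE for the 7 genes tested, for SLIRP siRNA against NS siRNA (left) and for DHT against vehicle (right), with filled points where the edgeR FDR was under 0.01. HLA-B, HLA-C, B2M and TAPBP are filled and left of 0 in all 3 siRNA comparisons, and no point is filled for DHT.

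The inducible proteasome subunits were barely detected in any group. PSMB8 had 23 counts and PSMB9 31 counts summed over the 16 libraries, with 0 to 3 and 0 to 7 counts a library. Summed over the 4 libraries of a group, PSMB8 had 7 counts with NS and 8 with SLIRP siRNA in vehicle, and 6 and 2 in DHT. PSMB9 had 11 and 5 in vehicle, and 11 and 4 in DHT. Every library of PSMB8, and all but 2 of PSMB9, were at or under the floor of 3 counts, so a fall or a small rise of either gene was not detectable at this depth. When the filter on low counts was removed, the pooled edgeR log2 fold change was -0.275 for PSMB8 (FDR 0.77) and -1.09 for PSMB9 (FDR 0.158).

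Set against the constitutive subunits they replace, PSMB8 and PSMB9 made up a few percent of their pairs. PSMB8 took 2.04% of the PSMB8 and PSMB5 counts in NS-Veh (exact binomial 95% interval 0.824 to 4.16) and 2.25% in SLIRP-Veh (0.978 to 4.39). With DHT it took 1.13% with NS (0.414 to 2.43) and 0.552% with SLIRP siRNA (0.067 to 1.98). PSMB9 took 4.0% of the PSMB9 and PSMB6 counts in NS-Veh (2.01 to 7.04) and 1.67% in SLIRP-Veh (0.545 to 3.86). With DHT it took 2.97% with NS (1.49 to 5.26) and 1.46% with SLIRP siRNA (0.399 to 3.7). The intervals of all 4 groups overlapped in each of these pairs. PSMB10, the inducible partner of PSMB7, took 16.7% of its pair in NS-Veh (12.97 to 21.02) and 9.23% in SLIRP-Veh (6.315 to 12.92), whose intervals did not overlap. With DHT it took 13.7% with NS (10.68 to 17.24) and 11.3% with SLIRP siRNA (7.881 to 15.45), whose intervals did. Of 6 exact permutation tests of the log2 ratio over libraries, PSMB10 to PSMB7 in vehicle had the lowest p, with a difference of -0.79 and an exact two-sided p of 0.0286, the smallest that 4 against 4 allows (0.171 adjusted over the 6 tests). For PSMB8 to PSMB5 the differences were 0.071 in vehicle and -0.15 in DHT (exact permutation p = 0.857 and 0.714). For PSMB9 to PSMB6 they were -0.39 and -0.51 (exact permutation p = 0.429 and 0.2). All these ratios were of log2 CPM with a prior count of 2. At 0 to 3 counts a library for PSMB8 and 0 to 7 for PSMB9, their size depends on that prior. On the authors' normalized values with a pseudocount of 1, the DHT differences were -1.168 for PSMB8 and -2.297 for PSMB9. The size of these differences was therefore not measured reliably. PSMB5, PSMB6 and PSMB7 had pooled log2 fold changes of -0.19, -0.037 and -0.21, of which none passed the FDR. Reads of PSMB10 are uncertain, since 48.6% of its 50-base windows also occurred in an overlapping locus.

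**Figure D4:**
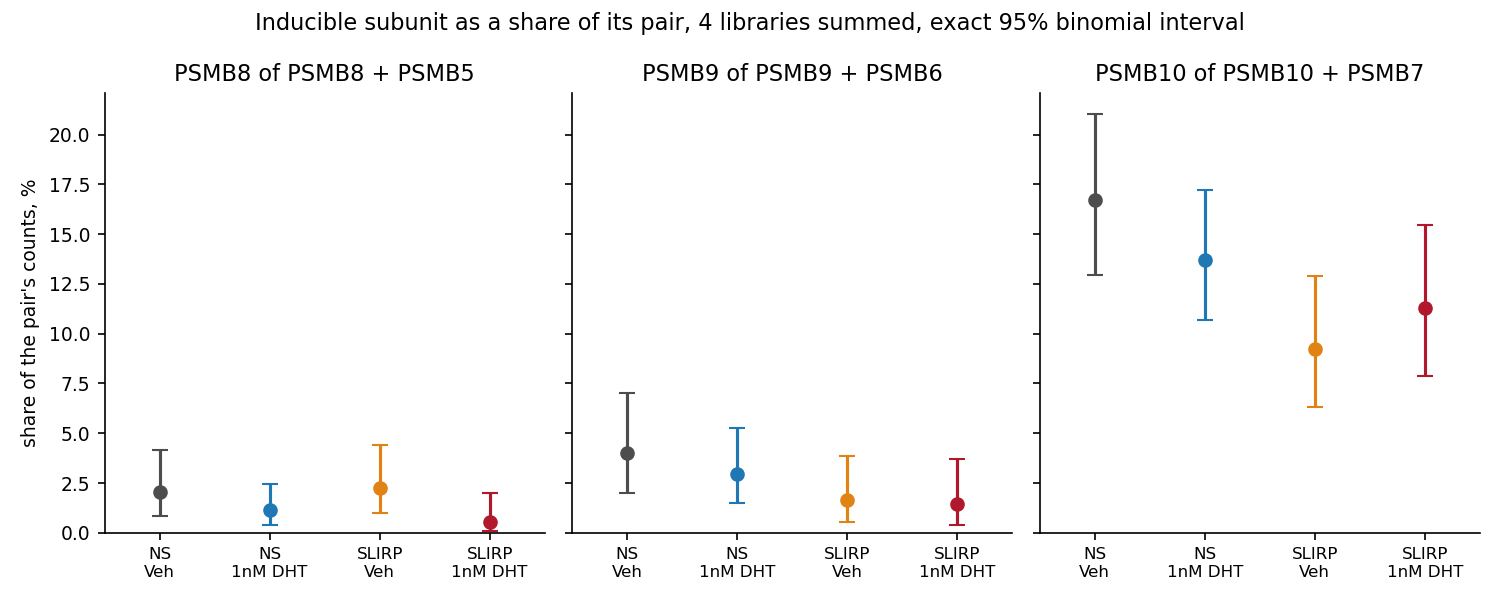
Counts of each inducible proteasome subunit as a percentage of its pair with the constitutive subunit, the 4 libraries of a group summed, with exact binomial 95% intervals that cover counting error only. PSMB8 lies between 0.552% and 2.25%, PSMB9 between 1.46% and 4.0% and PSMB10 between 9.23% and 16.7%.

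DHT changed none of the 7 genes tested past the FDR, with either siRNA. In NS libraries 0.849% of all genes tested were higher and 0.463% lower with DHT, and in SLIRP siRNA libraries 0.636% were higher and 0.534% lower. At an unadjusted p under 0.05, 1 of the 7 differed with NS, against 14.3% of all genes tested, and 2 with SLIRP siRNA, against 15.6%. DESeq2 and limma also called 0. However, limma called 0 of all 13147 genes with NS siRNA, and 6 higher and 6 lower with SLIRP siRNA (pseudocount of 1). Its result for these genes could therefore hardly differ. HLA-B had the lowest p with NS, with a log2 difference of -0.35 (SE 0.14, edgeR FDR 0.242) and overlapping libraries. TAPBP was at -0.14 (SE 0.077, FDR 0.426), with the NS-1nM DHT libraries below all NS-Veh libraries. With SLIRP siRNA the lowest p values belonged to HLA-C at -0.26 (SE 0.11, FDR 0.22), whose SLIRP-1nM DHT libraries lay below all SLIRP-Veh libraries, and HLA-E at -0.72 (SE 0.31, FDR 0.246). The share of all genes separated by DHT, as TAPBP and HLA-C were, was not counted. B2M had log2 differences of 0.0025 (SE 0.096) and 0.084 (SE 0.12) with NS and SLIRP siRNA.

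Whether the response to DHT differed between the siRNAs was tested as an interaction over all 16 libraries. None of the 7 passed, and 0% of all 10684 genes tested were higher or lower, while 388 genes had an unadjusted p under 0.05 (DESeq2 called 0, with 220). None of the 7 had an unadjusted p under 0.05. The largest differences of the response were -0.69 (SE 0.39) for HLA-E and 0.49 (SE 0.25) for TAP2 on the log2 scale, both with an edgeR FDR of 1.0.

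Some genes of the endoplasmic reticulum were also lower, with CALR and PDIA3 of the loading complex among them. The paper lists endoplasmic reticulum among the terms enriched in its genes lowered by SLIRP knockdown. Of 8 genes listed for peptide loading, trimming or entry into the endoplasmic reticulum, 6 were tested with SLIRP siRNA over all libraries. Of these, 4 fell and none rose, where 17.4% of all genes tested were lower and 17.8% higher. The median log2 fold change of the 6 was -0.387. CALR (calreticulin), a chaperone of the loading complex, fell by 0.87 on the log2 scale (SE 0.064, edgeR FDR 2.01e-12). PDIA3, the disulfide isomerase of that complex, fell by 0.43 (SE 0.054, FDR 8.34e-08). SEC61B and SEC61A1, subunits of the channel that lets new chains into the endoplasmic reticulum, fell by 0.54 (SE 0.11, FDR 0.000209) and 0.34 (SE 0.061, FDR 2.87e-05). CANX (calnexin), which receives free heavy chains, had a log2 fold change of 0.025 (SE 0.050, FDR 0.715).

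Of 9 class II presentation genes only HLA-DMB was tested over all libraries, with a log2 fold change of -0.92 and an FDR of 0.0107. None of the constitutive partners (3 tested) or of the other inducible proteasome parts (3 tested) passed.

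Only single genes that act upstream of class I expression are named here, and they do not show the direction of such genes as a set. Over all libraries 17.4% of all genes tested were lower and 17.8% higher. IRF9, the DNA-binding part of the type I interferon factor, was lower by 2.77 on the log2 scale (edgeR FDR 2.07e-10), with a mean count of 22.44. STAT2 rose by 0.37 (SE 0.10, FDR 0.00312). The NF-kB subunits NFKB1 and RELA had log2 fold changes of -0.027 and -0.052, and NLRC5, IRF1 and CIITA had too few counts to be tested. Of 16 interferon response genes 11 were tested and 10 fell, against 17.4% of all genes tested, with a median log2 fold change of -2.62. The summed level of the 16 was 803.8 to 1308 CPM in NS libraries and 174.4 to 231.4 CPM in SLIRP siRNA libraries. This list was chosen with that fall known, and its part in the class I result was not tested. Luminal prostate markers moved both ways, with 4 of 10 lower and 1 higher, against 17.4% and 17.8% of all genes tested. With DHT no gene of the loading, proteasome, class II or interferon response lists passed. Of the luminal markers 4 of 10 were higher with DHT under each siRNA, against 0.849% of all genes with NS and 0.636% with SLIRP siRNA.

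**Figure D5:**
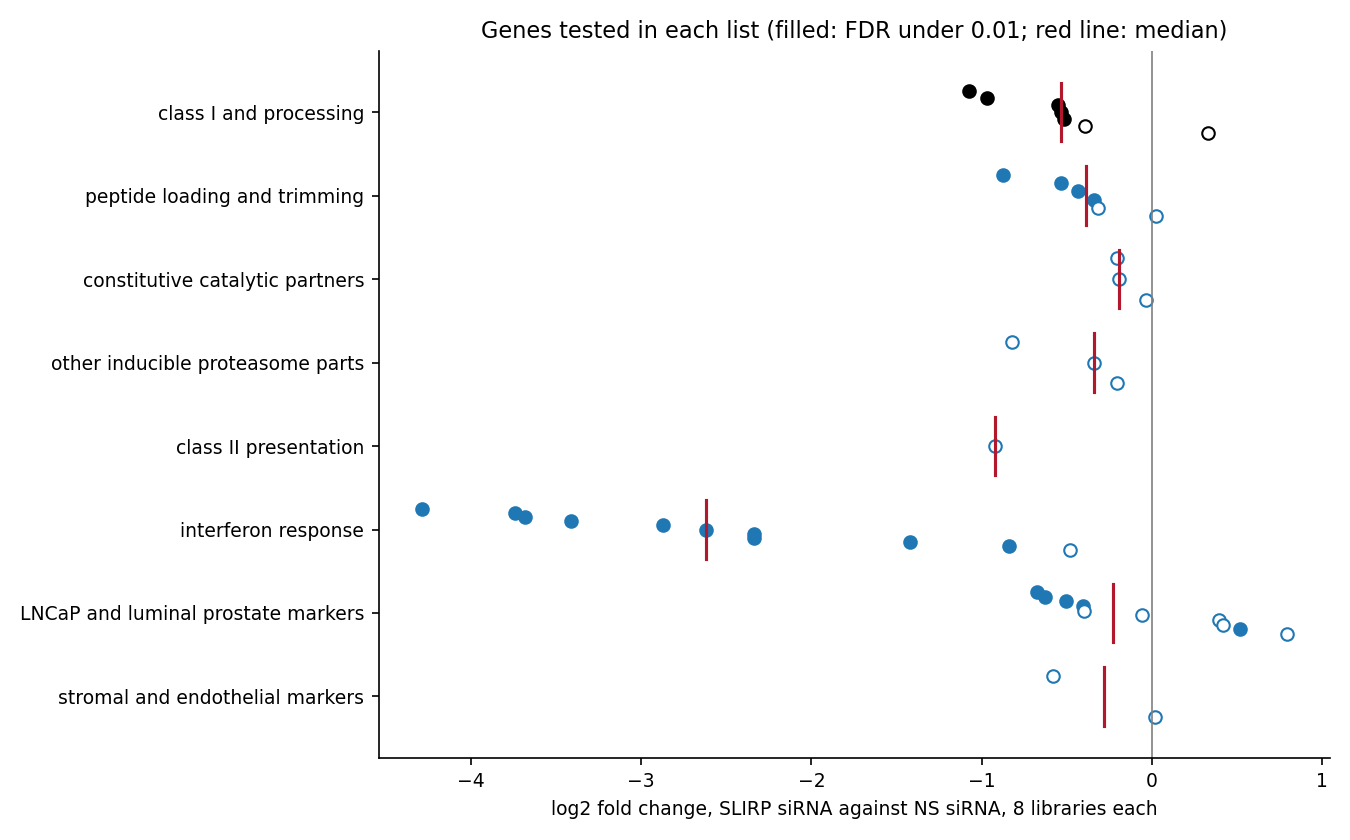
Pooled log2 fold change of SLIRP siRNA against NS siRNA for each gene tested, by list, with the 7 class I and processing genes in black, filled points for an edgeR FDR under 0.01 and red lines at the medians. The medians are -0.535 for the class I genes, -0.387 for peptide loading and -2.62 for the interferon response.

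Other genes in the same stretch of chromosome 6 were mixed. Between the start of HLA-E and the end of TAPBP on hg19, 56 other genes were tested, of which 10.7% were lower and 8.93% higher with SLIRP siRNA, with a median log2 fold change of -0.0305. The most similar patterns over the 16 libraries were sought for the 6 class I genes whose mean count reached 30, among the 2698 genes whose mean count reached 100. The nearest to HLA-B were FOLH1 (Pearson r 0.934), SH3RF1 (0.928) and TACC2 (0.927), and to HLA-C they were RNF10 (0.935), CHD3 (0.931) and CALR (0.93). HSP90AA1 (0.941), SH3D19 (0.924) and NARS (0.918) were nearest to B2M, and ACTG1 (0.947), KDM6A (0.946) and ERBB2 (0.943) to TAPBP. For TAP1 these were MYL6 (0.84), WDR6 (0.839) and VCL (0.821), and for TAP2 they were EIF5 (0.83), SLC38A1 (0.817) and BCLAF1 (0.804). Among the class I genes themselves r was highest for HLA-B with B2M (0.865) and HLA-C with TAPBP (0.864), and TAP2 was negative with each of the other 5 (-0.636 to -0.379). These libraries share groups and depth, so the values of r are descriptions over 16 points that follow the siRNA.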

How the data were processed

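RNA of 16 LNCaP libraries was sequenced as single reads of 50 bases against hg19. The submitters' processing notes name CASAVA and RSEM, and the annotation and strand setting are not given in the sources used here. The authors deposited estimated counts per gene, which were rounded to whole numbers and used for every main result. A second table deposited by the authors gave 13147 genes as a score, scaled to an upper quartile of 1000 in each library, and served only for alternatives. Entries without a symbol (29, with 0.0353% of counts) were left out.

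Counts were scaled by TMM and filtered by filterByExpr, and tested by edgeR 4.0.16 in R 4.3.3 with Benjamini-Hochberg adjustment and a threshold of 0.01. All 8 SLIRP siRNA libraries were compared with all 8 NS libraries without a covariate, the DHT response with NS siRNA was fitted on 8 libraries, and the other comparisons were contrasts of a model of 4 groups over 16 libraries. Ratios of subunits were tested by exact two-sided permutation in scipy 1.17.1 (Python 3.11.15), and plots were drawn with matplotlib 3.10.9. DESeq2 1.42.0 and limma 3.58.1 were alternatives, with other scalings, filters and sample sets. Library totals and the floor of 3 counts are in the report, and intervals cover counting error only.

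The genes and lists were chosen with earlier results of these data known. All 9 genes are named, with list genes that passed over all libraries at a mean count of at least 30, constitutive partners, the targeted gene, and the 3 genes most correlated with each of the 9 whose mean count reached 30. PSMB10, CANX, HLA-DMB, IRF9, NFKB1, RELA, NLRC5, IRF1, CIITA and PTPRC were named after their values were seen. Some genes and the lists that held them are not reported here. Gene positions are from GENCODE on hg19, and upstream sequences from RefSeq on GRCh38.p14. On simulated counts of 10183 genes, the pooled comparison recovered 100% of 200 genes changed by 1 on the log2 scale, with 3 false calls of 203. On 10563 genes, the comparison of siRNAs in DHT recovered 93% of 200 such genes with edgeR, with 2 false calls of 188, and on 10684 genes 89.5% with DESeq2. The changed genes were drawn from those with a mean count of at least 30, which HLA-E (20.19) did not reach. Smaller changes, such as those of HLA-C, B2M, TAP1, TAP2 and TAPBP, were not simulated, so their recovery is not known. The simulated libraries were independent and only these 200 genes differed. In the data 17.4% of all genes tested were lower and 17.8% higher over all libraries, which came from 2 experiments. The simulation therefore does not give the rate of false calls in the data.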

Additional observations from a re-analysis of the deposited data

Results flagged for a closer look

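A single library stood apart from the other 3 of its group in 3 of the 24 groups of 4 libraries examined, by Dixon's test at the 95% level, where chance alone gives about 1 in 20. HLA-B was at 20.9 CPM in SLIRP-1nM DHT replicate 4, below the 39.5 to 44.3 CPM of the others. B2M was at 291.0 CPM in SLIRP-Veh replicate 2, above the 201.0 to 213.0 CPM of the others. TAP2 was at 26.5 CPM in NS-Veh replicate 4, below the 34.0 to 34.8 CPM of the others.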

How the results depend on the processing

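The number of class I genes that passed in either direction with SLIRP siRNA was 4 to 7 over the alternatives for all libraries (5 in the report), with TAP1 (lower) and TAP2 (higher) added at an FDR of 0.05. It was 3 to 5 in vehicle and 4 to 6 in DHT, and 0 in each alternative for DHT and for the difference of the responses. HLA-E could not be fitted with at least 10 counts in every library. With only replicates 1 and 2, HLA-C in vehicle (FDR 0.0405) and HLA-B in DHT (FDR 0.0101) no longer passed, and with only replicates 3 and 4 HLA-C in vehicle (FDR 0.0111) and TAPBP in DHT (FDR 0.0156) did not.

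Values near 0 changed sign. For DHT with NS siRNA, HLA-E was at 0.123 and 0.1175 with limma (pseudocounts of 1 and 10), and B2M at -0.01294 with DESeq2, -0.00623 with upper-quartile scaling, -0.02677 with a replicate block, and -0.01806 and -0.01802 with limma. For the difference of the responses, HLA-B was at -0.003707 with limma, and TAPBP at 0.004531 with DESeq2 and 0.004104 with RLE scaling. On the authors' normalized values, the log2 ratio of PSMB8 to PSMB5 in vehicle differed by -0.02778 and that of PSMB9 to PSMB6 by 0.01447. In DHT these ratios kept their sign but grew to -1.168 and -2.297. The cause was not tested.

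Leaving out each library in turn gave ranges of -0.01839 to 0.161 for TAP2 in vehicle, -0.1807 to 0.1905 for HLA-E and -0.07255 to 0.08466 for B2M in the DHT response with NS siRNA, and -0.1581 to 0.1238 for TAP1 in that with SLIRP siRNA. For the difference of the responses they were -0.08511 to 0.2937 for HLA-B and -0.1284 to 0.05544 for TAPBP. The ratio of PSMB8 to PSMB5 ranged over -0.1286 to 0.3307 in vehicle and -0.4793 to 0.01347 in DHT, and that of PSMB10 to PSMB7 over -0.4655 to 0.1792 in DHT.

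Among all genes, higher and lower calls over all libraries were 1812 and 1769, but 1101 and 956 with only replicates 1 and 2 and 1162 and 966 with only replicates 3 and 4, alternatives chosen after seeing the data. In vehicle 1256 and 1063 became 721 and 576 or 783 and 682 with these replicates, and 762 and 629 or 775 and 638 with limma. In DHT 1370 and 1237 became 1007 and 731 or 857 and 712, and 553 and 816 or 555 and 809 with limma. For DHT with NS siRNA 88 and 48 became 164 and 108 at an FDR of 0.05, 50 and 39 with DESeq2, 153 and 83 without a filter and 0 and 0 with limma (1267 genes at an unadjusted p under 0.05). With SLIRP siRNA 68 and 57 became 157 and 152, 123 and 97 without a filter, and 6 and 6 or 4 and 4 with limma. Upper-quartile scaling turned that split to 52 and 74, and a minimum of 10 counts to 71 and 76. For the difference of the responses 0 and 0 became 5 and 6 without a filter and 1 and 0 with limma.

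Replicate numbers were not taken as pairs: same-numbered libraries correlated at 0.000111 to 0.201 in their deviations from the group means over 6965 genes. In each pair of groups the mean for same numbers (0.0287 to 0.137) was above that for different numbers (-0.0446 to -0.00918). The labels do not give the experiment of a library. The main tests therefore hold no term for the experiment, and their FDRs treat libraries as independent. With the numbers as a replicate block, 5, 4 and 5 class I genes passed over all libraries, in vehicle and in DHT, and calls among all genes for DHT with NS siRNA went to 169 and 101. In the 4 pairs of groups, 1, 2, 3 and 1 of 4 libraries correlated best with their own number.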
